A study of Homo sapiens with 15 samples.

Results

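NR1D1 and NR1D2 encode REV-ERBα and REV-ERBβ, and the sites of the transcription factors BMAL1 and HIF2α at these genes were examined in renal carcinoma cells. A peak was assigned to either gene when its summit had the gene's transcription start site as the nearest protein-coding one or lay in the gene body (hg19, GENCODE annotation). Across 4 peak lists with 4873 peaks in all, 4 peaks met this rule. Of these, 3 stood in the BMAL1 list of control cells, 1 in the BMAL1 list of BMAL1-depleted cells and 0 in either HIF2α list. They mark 3 places, namely the NR1D1 promoter, the first intron of NR1D1 and a promoter inside NR1D2, and they concern 2 of 20149 protein-coding genes. By the same rule a BMAL1 peak was assigned to 8.83% of these genes in control cells and to 3.94% in depleted cells, and a HIF2α peak to 5.17% and 4.55%, respectively.

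The series is a CUT&RUN experiment, in which an antibody directs a nuclease to chromatin so that DNA around the bound protein is cut out and sequenced. All cells were 786-O, an established line of clear cell renal cell carcinoma that lacks functional VHL and so keeps HIF2α without hypoxia, labelled as wild type for genotype. They were infected with lentivirus for shControl, an shRNA of control sequence, or for shBMAL1, which targets BMAL1, and selected in puromycin, which both groups share. BMAL1 in shControl cells, HIF2α in shControl cells and HIF2α in shBMAL1 cells have 3 libraries each, and BMAL1 in shBMAL1 cells has 2. IgG, the negative control, has 4, for which no list of peaks was analysed here. Each group was deposited as 1 pooled list. No error between libraries can therefore be given for any value here, no test was run, and a place with no call may hold signal below the calling threshold.

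REV-ERBα and REV-ERBβ are nuclear receptors that bind haem and repress transcription through the NCoR1 and HDAC3 corepressor complex. BMAL1 and CLOCK bind E-boxes (CACGTG) at the REV-ERB genes and activate them, and the REV-ERB proteins in turn repress the BMAL1 gene at elements they share with the ROR activators. This loop stabilises the circadian clock and links it to metabolism. HIF2α pairs with ARNT and binds the hypoxia response element (HRE), whose core is ACGTG or GCGTG. The E-box contains the former.

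The letters under the REV-ERB peaks are shown because the peaks differ in how many E-boxes they hold and in where these lie relative to the summit. Sequences are from GRCh37, the assembly with hg19 coordinates, on the strand of the gene and 5′ to 3′. Capitals mark E-boxes, except in the NR1D1 promoter window, where they mark the E-box variant CACGTT read from its other strand. The first is the E-box of the NR1D1 intronic peak that was under the shControl peak alone (chr17:38255680-38255709, minus strand). The next is the window of 200 bp around the promoter summit (chr17:38256888-38257087, minus), followed by the nearest E-box upstream of that peak (chr17:38257289-38257318, minus). The last runs from the E-box just outside the NR1D2 peak to the base before the internal start site (chr3:23987340-23987611, plus).
NR1D1 intron, single E-box: tagagccgggccCACGTGctgcgtttgttt
NR1D1 promoter, window at the summit: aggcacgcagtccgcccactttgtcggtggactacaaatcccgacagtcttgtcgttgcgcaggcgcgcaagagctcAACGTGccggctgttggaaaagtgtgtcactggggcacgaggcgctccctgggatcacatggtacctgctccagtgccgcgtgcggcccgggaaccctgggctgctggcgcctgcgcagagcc
NR1D1 promoter, E-box upstream of the peak: cagtcctgcaatCACGTGaagccctcacgt
NR1D2 promoter, peak up to the start site: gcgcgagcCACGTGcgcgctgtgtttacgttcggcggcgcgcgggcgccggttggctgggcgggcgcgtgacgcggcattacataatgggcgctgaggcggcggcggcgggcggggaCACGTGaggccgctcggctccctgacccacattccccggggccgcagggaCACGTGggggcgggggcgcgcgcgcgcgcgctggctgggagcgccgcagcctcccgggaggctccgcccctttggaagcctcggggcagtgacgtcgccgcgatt

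For the series as a whole, the shControl BMAL1 list held 1812 peaks and the shBMAL1 BMAL1 list 768, against 1204 and 1089 HIF2α peaks in shControl and shBMAL1 cells. Median peak widths lay between 213 and 255 bp. The depth of the libraries is not given in the lists. A shControl BMAL1 peak that overlapped a shBMAL1 BMAL1 peak by at least 1 bp was termed retained. This held for 701 of 1812 peaks (38.7%), the share against which the REV-ERB peaks are read.

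In shControl cells both REV-ERB genes carried BMAL1 peaks in the upper part of the list. Strength is given as the fold enrichment over local background and as −log10 p, both as MACS2 reported them for a peak in its own list. The percentile is the percent of that list's peaks that had no larger −log10 p than the peak in question. NR1D1 (ENSG00000126368.6_8, chr17:38249046-38256842, minus strand) had 2 of the peaks and NR1D2 (ENSG00000174738.13_6, chr3:23986777-24022108, plus strand) had 1.

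The strongest REV-ERB peak lay in intron 1 of NR1D1, at chr17:38255334-38255870. Its summit was 1281 bp downstream of the gene start, its fold was 13.3 and its −log10 p was 123. It ranked 160 of 1812 by p, at percentile 91.2, and at percentile 84.0 by fold. With 537 bp it was also wide, at percentile 89.5 by width, and it stood further up the list by p than by fold.

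The NR1D1 promoter peak, at chr17:38256838-38257261, had its summit at position -146 relative to the gene start. Its fold of 11.4 and −log10 p of 63.0 gave rank 312 and percentile 82.8. The promoter peak was thus weaker than the intronic one on both scales, with a difference of -0.22 in log2 fold (promoter minus intron), for which no error can be given. The summits were 1427 bp apart and 967 bp without a call separated the peaks, so that 2 places rather than 1 broad one were called. The 3′ end of NR1D1 overlaps THRA, a thyroid hormone receptor gene, by 1075 bp, but both peaks lay at the other end of the gene.

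The single NR1D2 peak, at chr3:23987361-23987640, was not at the outermost start of the gene. Its summit was 713 bp downstream of that start, in intron 1 of the coding transcript NR1D2-201. The summit was also 122 bp upstream of the start site of a shorter transcript, NR1D2-205, whose coding sequence is not defined in the annotation. By that start site alone the peak is termed a promoter peak. Its fold was 10.6 and its −log10 p 45.1, which gave rank 443 and percentile 75.6. The summit also lay inside NKIRAS1, a gene of the opposite strand that encodes an inhibitor of NF-κB signalling. The start site of the transcript NKIRAS1-205 was 592 bp away, so the peak counts for both genes and cannot be given to NR1D2 alone. All other NKIRAS1 transcripts start far from the peak, at chr3:23958481 or lower coordinates. No summit at either REV-ERB gene lay in an exon.

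**Figure D1:**
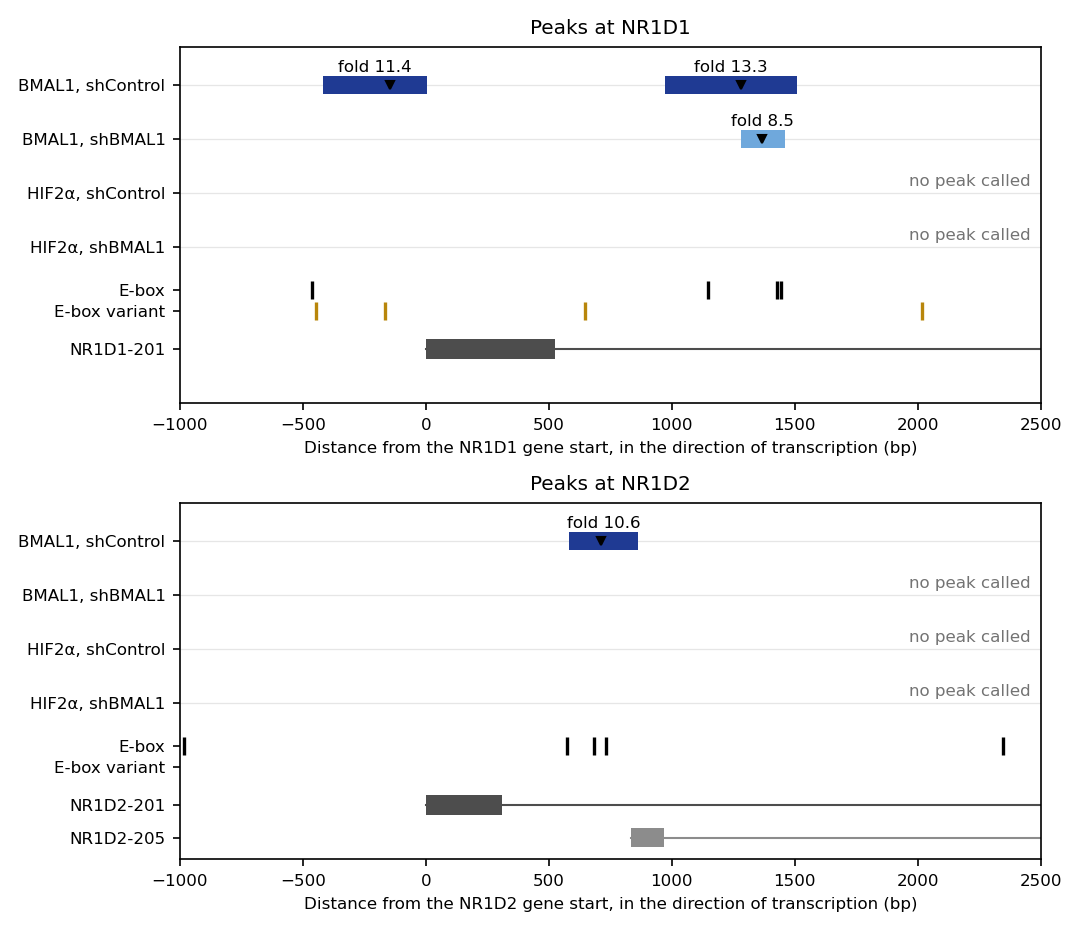
Peaks at NR1D1 and NR1D2 in the 4 lists, against distance from the gene start in bp in the direction of transcription. Bars are peaks with their fold enrichment, triangles are summits, ticks are E-boxes (CACGTG) and E-box variants (CACGTT), and boxes on the lower lines are exons. NR1D1 had 2 BMAL1 peaks in shControl cells and a narrow one in shBMAL1 cells, NR1D2 had 1 BMAL1 peak in shControl cells, and neither gene had a HIF2α peak.

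The 3 shControl peaks differed in the place of their E-boxes. The NR1D2 summit lay between 2 E-boxes that start 50 bp apart, and both were in the window of 200 bp around it. Only 36 of the 1812 shControl BMAL1 windows held 2 or more E-boxes, and 12.9% held at least 1. Another E-box lay 7 bp outside the NR1D2 peak.

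The NR1D1 intronic peak held 3 E-boxes, a number that 16 of the 1812 peaks reached or passed over their full width. None of the 3 lay in the 200 bp around its summit. A pair started 15 bp apart on the downstream side, at 148 and 162 bp from the summit, and the single one was 134 bp away on the upstream side. The summit thus stood between the pair and the single E-box, as it stood between the E-boxes of NR1D2, but at a greater distance. A pair starting within 20 bp of each other was found in 8 of the 1812 shControl BMAL1 peaks.

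The NR1D1 promoter peak held 0 E-boxes. The nearest, at position -462, was 39 bp outside the peak and 316 bp from the summit. The peak did hold the variant CACGTT, which 7.23% of the shControl BMAL1 peaks held, at 20 bp from the summit. It was thus the 1 REV-ERB peak whose BMAL1 call had no CACGTG under it. Over all 1812 shControl BMAL1 peaks, 15.6% held an E-box, so a BMAL1 peak without one was the usual case in this list.

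Other motifs of the clock were also counted on both strands. A D-box (TTANGTAA), which the PAR bZIP factors DBP, TEF and HLF and their competitor NFIL3 bind, occurred in the NR1D1 intronic peak at 60 bp from the summit and in the NR1D2 peak at 68 bp. Such a match was found in 0.883% of the shControl BMAL1 peaks. The core element AGGTCA, which REV-ERB and ROR proteins bind, was in 0 of the 4 REV-ERB peaks, against 12.4% of the shControl BMAL1 peaks. The HRE core was common under BMAL1 peaks, with 64.9% holding at least 1, and an E-box counts as 2 such matches because it reads the same on both strands. The NR1D1 intronic, NR1D1 promoter and NR1D2 peaks of shControl cells held 9, 4 and 5 HRE cores, of which 6, 0 and 4 came from E-boxes. A match of letters is a description of the sequence and does not show a bound site.

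RefSeq promoters of 300 bases, each spanning a start site, were also counted. The promoter of the outer start of NR1D2 held 0 E-boxes and shared no base with the BMAL1 peak. The promoter of its internal start held 2 E-boxes and 1 D-box. As it shared 279 bp with the peak, these are the matches already counted there and not a second source. The NR1D1 promoter held 0 E-boxes and 1 variant, and 255 bp of it were under the promoter peak. Among 35116 RefSeq promoters, 7.26% held an E-box and 0.664% held 2 or more. Over a wider stretch, 2500 bp to each side of the gene start, NR1D1 had 4 E-boxes and NR1D2 had 5, and 1.37% and 0.437% of protein-coding genes had at least as many.

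**Figure D2:**
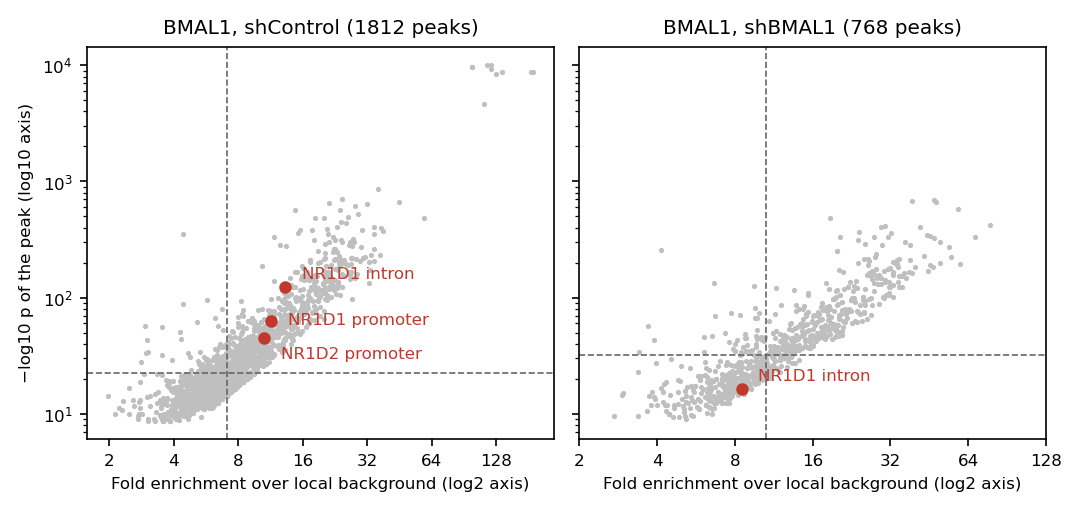
Fold enrichment (log2 axis) against −log10 p (log10 axis) of every BMAL1 peak in shControl and shBMAL1 cells, with the REV-ERB peaks in red and the list medians as dashed lines. The 3 shControl peaks at the REV-ERB genes lie above both medians, and the NR1D1 intronic peak of shBMAL1 cells lies below both.

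In shBMAL1 cells 1 of the 3 REV-ERB places was still called. The intronic peak of NR1D1 was retained, and the NR1D1 promoter and NR1D2 peaks were not, which left NR1D1 with 1 peak and NR1D2 with 0. The intronic call rests on an overlap of 1 bp or more. When the overlap had to cover at least 50% of both peaks, 0 of the 3 were retained, against 34.9% of all shControl BMAL1 peaks. The shBMAL1 list rests on 2 libraries and the shControl list on 3, so that less binding and fewer reads cannot be told apart where a call is absent. The share of 1 in 3 is close to the 38.7% of all shControl BMAL1 peaks, and nothing about the REV-ERB genes can be read from it alone. Retention varied with strength, however, and the REV-ERB peaks were stronger than most.

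Each peak was therefore set beside the 100 peaks on each side of it by p. Among the 200 neighbours of the NR1D1 intronic peak, 95.5% were retained (95% Wilson interval 91.7% to 97.6%, which covers counting error only), and so was the peak itself. Among the neighbours of the NR1D1 promoter peak 90.0% were retained (85.1% to 93.4%), but that peak was not. Among those of the NR1D2 peak 74.5% were retained (68.0% to 80.0%), and that peak was not. By fold in place of p, the 3 shares were 76.5%, 67.0% and 61.0%, so the contrast with the neighbours was smaller on that scale.

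**Figure D3:**
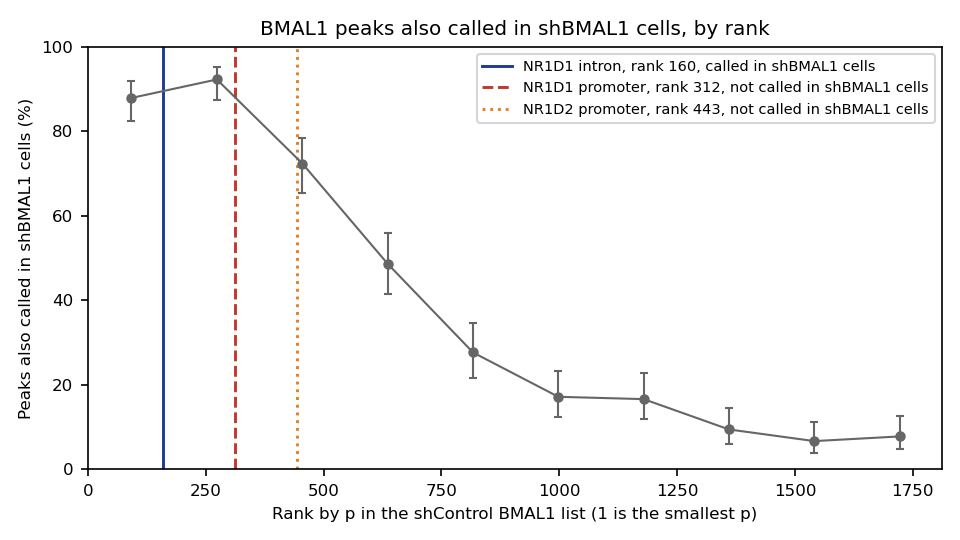
Percent of shControl BMAL1 peaks that were also called in shBMAL1 cells, in 10 equal groups of the list by rank of p, with 95% Wilson intervals. Vertical lines mark the ranks of the REV-ERB peaks, of which the NR1D1 promoter (rank 312) and NR1D2 (rank 443) were not called although 90.0% and 74.5% of their neighbours were.

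The same ranks and calls can be restated from the side of the peaks that were not retained. Only 30 of the 1111 such peaks had a larger −log10 p than the NR1D1 promoter, and 53 had a larger one than NR1D2. In contrast, 419 of the 701 retained peaks were weaker than the NR1D1 promoter. The peaks at least as strong as the NR1D1 promoter numbered 313, itself included, and 31 of them were not retained. Of these, 23 lay at EPAS1 and ARNT, the genes of HIF2α and its partner, as 10 and 13 separate peaks. Their folds were 98.9 to 189 at EPAS1, which held ranks 1 to 10 of this list by fold, and 10.3 to 23.6 at ARNT. Why so many peaks were called within single genes was not tested. Of the other 8 peaks not retained, 3 lay at clock genes, namely CIART, CRY2 and the NR1D1 promoter, which itself set this limit of strength. Among the 282 retained peaks of this strength, 5 lay at clock genes, namely NR1D1, PER1, PER2, PER3 and TEF. EPAS1 and ARNT were chosen for mention after their values were seen, as was the count of strong peaks. With the peaks at both genes left out, the shares retained among the neighbours were 99.0%, 90.5% and 74.5% for the NR1D1 intron, the NR1D1 promoter and NR1D2.

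The retained peak in NR1D1 intron 1 was narrower and ranked lower after depletion. It spanned chr17:38255384-38255562, which is 179 bp against 537 bp in shControl cells, and its fold was 8.49 with a −log10 p of 16.3. In the shBMAL1 list it ranked 628 of 768, at percentile 18.4 by p and 33.9 by fold. Because each list has its own depth and background, these values were read against the other retained peaks rather than as amounts.

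Its percentile by p was 72.9 points below that in shControl cells, with the median over the 701 pairs at -17.1. Only 7 pairs (0.999%) differed by more in that direction. The ratio of its folds, shBMAL1 over shControl, was 0.641 against a median ratio of 1.13, and 67 pairs (9.56%) had a lower one. Its width was 33.3% of that in shControl cells, against a median of 90.7%. The place of NR1D1 among the pairs was therefore far lower by percentile of p than by fold.

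The narrower peak lay over the pair of E-boxes. Its summit was 87 bp further into the gene than the shControl summit, where the median shift of the 701 pairs was 14 bp. Of the 3 E-boxes in the shControl peak, the closely spaced pair was still under the shBMAL1 peak and the single one was not. Both E-boxes of the pair stood within 100 bp of the new summit, although 0 were within 50 bp. Of the 768 shBMAL1 BMAL1 peaks, 6 held 2 or more E-boxes and 2 held a pair starting within 20 bp, and NR1D1 is among both.

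Over the whole list, retention was less common at peaks with E-boxes. Of shControl BMAL1 peaks with 0, 1 and at least 2 E-boxes over their width, 41.3%, 24.9% and 22.8% were retained. The NR1D1 intronic peak, with 3 E-boxes, belongs to the 13 of 57 peaks with at least 2 that were called again, and the NR1D2 peak belongs to the 44 that were not. The NR1D1 promoter, with 0, stood in the group called again most often and was not called. Among the 313 peaks at least as strong as the NR1D1 promoter the order was not the same, with 35 of 37 peaks with an E-box retained (94.6%, 95% Wilson interval 82.3% to 98.5%) and 247 of 276 without one (89.5%, 85.3% to 92.6%), and these intervals overlap.

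By place, promoter peaks were called again more often than others. Within 1000 bp upstream to 100 bp downstream of a start site, 45.9% of 1035 peaks were retained (95% Wilson interval 42.9% to 48.9%). Elsewhere 29.1% of 777 peaks were retained (26.0% to 32.4%). The promoter peaks were also stronger, with a median percentile of 56.5 and a median fold of 7.68. For the peaks elsewhere, the median percentile was 38.7 and the median fold 6.72. Retention varied with strength, and whether place mattered among peaks of equal strength was not tested. NR1D1 went the other way by place, with its intronic peak called again and its promoter peak not. By strength it did not, as the intronic peak ranked 160 by p and the promoter peak 312. The intronic summit itself counts as promoter when promoters reach 2500 bp from a start site. Of 53 genes with both a promoter peak and a peak in the body in shControl cells, 21 kept only the promoter call. Another 15 kept both, 9 kept neither, and NR1D1 was 1 of the 8 that kept only the call in the body. This count does not take the strength of the peaks into account.

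**Figure D4:**
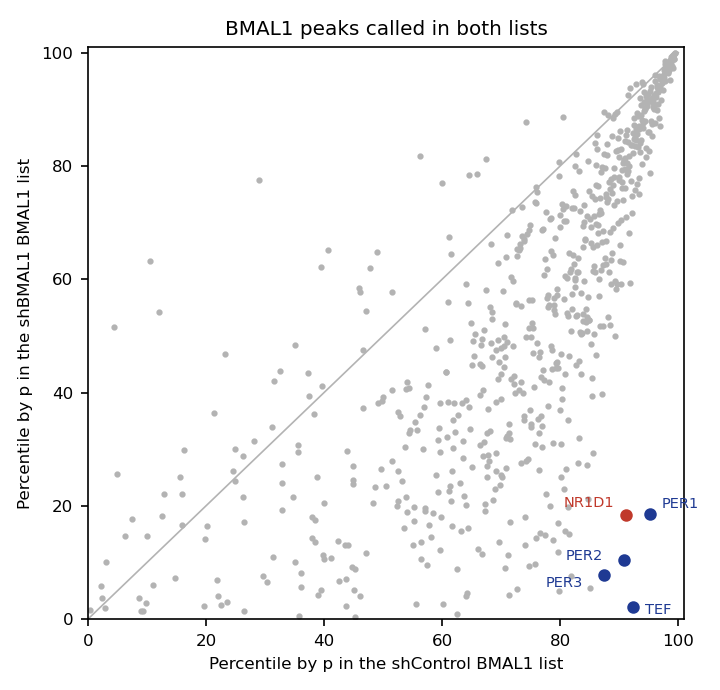
Percentile by p in the shBMAL1 BMAL1 list against that in the shControl BMAL1 list for the 701 shControl peaks called in both. NR1D1 (91.2 and 18.4) and the other clock genes PER1, PER2, PER3 and TEF lie together at the lower right, below the line of equal percentile.

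The REV-ERB genes are part of the set of clock genes that BMAL1 and CLOCK drive through E-boxes. Of 13 such genes, all 13 had a BMAL1 peak in shControl cells, where 8.83% of genes did. These were the period genes PER1, PER2 and PER3, the cryptochromes CRY1 and CRY2, and CIART, all repressors of BMAL1 and CLOCK, both REV-ERB genes, the PAR bZIP genes DBP, TEF and HLF, and the E-box repressors BHLHE40 and BHLHE41. By the p of the best peak, NR1D1 was the third of the 13, after PER1 (rank 89) and TEF (rank 140) and just before PER2 (rank 168). NR1D2 was the ninth, after CRY1 (rank 337) and before DBP (rank 665). The list was chosen for its known biology with results of these data in view, so its count is a description.

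In shBMAL1 cells 5 of the 13 genes had a BMAL1 peak, namely PER1, PER2, PER3, NR1D1 and TEF, against 3.94% of all genes. NR1D2 shared its loss of the call with CIART, CRY1, CRY2, DBP, HLF, BHLHE40 and BHLHE41. Counted by peaks, 5 of the 17 shControl peaks of these genes were retained (29.4%), beside 38.7% of all peaks.

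The 5 retained clock peaks resembled each other. Their percentiles in shControl cells lay between 87.4 (PER3) and 95.1 (PER1), and in shBMAL1 cells between 2.08 (TEF) and 18.5 (PER1). PER1, PER2, PER3 and TEF were 4 of the 7 pairs whose percentile by p differed by more than that of NR1D1. The fold ratio of NR1D1, 0.641, was nevertheless the highest of the 5, as the others lay between 0.223 (PER1) and 0.292 (PER2). A difference in percentile this large is open only to peaks high in the first list, and these pairs were set together after their values were seen.

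**Figure D5:**
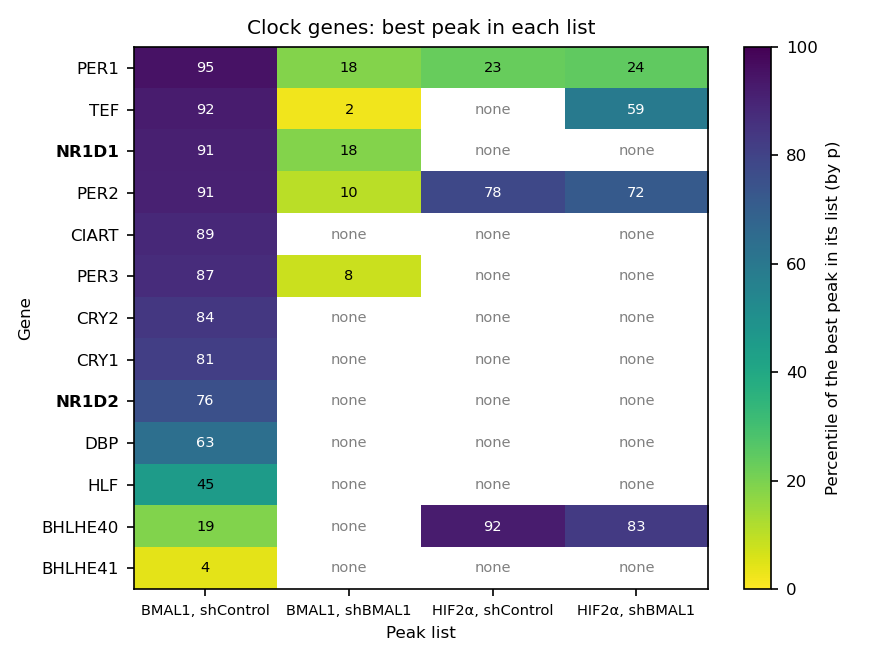
Percentile by p of the best peak of 13 clock genes in each of the 4 lists, ordered by the shControl BMAL1 list, with "none" where no peak was called. NR1D1 stood at 91 in shControl and 18 in shBMAL1 cells for BMAL1, NR1D2 at 76 in shControl cells only, and neither had a HIF2α peak.

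HIF2α was not called at either REV-ERB gene, in shControl or in shBMAL1 cells. The lists hold only peaks past a threshold on p, so that signal short of it cannot be told from none. Within 100000 bp of either gene start, the 4 lists held no peak other than those described. The HIF2α peak nearest to NR1D1 was 211997 bp from its start in shControl cells and 211867 bp in shBMAL1 cells, and both were nearest to RARA, a retinoic acid receptor gene. For NR1D2 it was 1522230 bp away in shControl cells, at RARB, and 309544 bp away in shBMAL1 cells, in the body of THRB.

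Of the clock genes, PER1, PER2 and BHLHE40 had HIF2α peaks in shControl cells, and TEF joined them in shBMAL1 cells. NR1D1 and NR1D2 were thus among the 9 of 13 that had 0 HIF2α peaks in both groups. As 5.17% and 4.55% of all genes had one, a gene with none was the common case, and the absence of calls does not set the REV-ERB genes apart from other genes.

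BMAL1 peaks were also sought at genes that act with or under the REV-ERB proteins. Of BMAL1, CLOCK, NPAS2, NFIL3, RORA, RORB, NCOR1 and HDAC3, 0 of 8 had a BMAL1 peak in either group, where 8.83% and 3.94% of all genes had one in shControl and shBMAL1 cells. In shBMAL1 cells NFIL3, a repressor that competes for D-boxes, and RORB, a receptor that competes with REV-ERB proteins, had HIF2α peaks with folds of 6.94 and 7.28, beside 4.55% of all genes with a HIF2α peak. Neither counted when a peak had to lie within 10000 bp of the gene start.

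BMAL1 peaks of shControl cells lay at 8 of 47 nuclear receptor genes (17.0%, beside 8.83% of all genes), both REV-ERB genes included, and by p NR1D1 was behind NR1H2 (rank 127, fold 21.6) and ESRRA (rank 152, fold 22.1). NR1H2 encodes a liver X receptor and ESRRA an oestrogen-related receptor. Both were called again, at percentiles 85.7 and 68.2 of the shBMAL1 list, where NR1D1 stood at 18.4. NR6A1 (rank 388), RARA (rank 866) and NR2E3 (rank 1101) were, like NR1D2, not called again, and RARB (rank 1595) was.

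The calls of the REV-ERB genes over the 4 lists are common ones. Of 2660 genes with a peak in any list, 587 (22.1%) had NR1D1's pattern of calls in both BMAL1 lists alone and 722 (27.1%) had NR1D2's pattern of the shControl BMAL1 list alone. By Euclidean distance between the percentiles of the best peak over the 4 lists, the genes nearest to NR1D1 were PLD6 and ENSG00000264187, which share a peak (distance 9.98), then MAMSTR (10.8), NCAPG2 (11.1) and PER3 (11.2). The nearest to NR1D2 was NKIRAS1 (distance 0), because it has the same peak, followed by ISOC2 (0.0552), BICRA (0.221), SLC2A4 (0.386) and OSBPL2 (0.552). These distances describe 4 values per gene and carry no statement on shared function.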

How the data were processed

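CUT&RUN libraries of 786-O cells were made with antibodies against BMAL1 or HIF2α, or with IgG as the negative control, from 100000 cells per reaction. Per the labels and the study's methods, the authors aligned reads to hg19 and to yeast (sacCer3) with Bowtie2 2.5.3, removed duplicates (SAMtools 1.6), called peaks with MACS2 2.2.9.1 at a threshold set on p and removed blacklisted regions with bedtools 2.31.1. The lists are pooled over the libraries of a group, and 1 further BMAL1 library of shBMAL1 cells had been left out by the authors for its few reads. The use of IgG in peak calling is not given in the sources used here. The fold of each peak is a ratio over local background as deposited by the authors. MACS2 also gave each peak a −log10 p and a −log10 q, which the authors deposited with it. The labels call the libraries biological replicates, whereas the study's reporting form calls the immunoprecipitations technical replicates. Per the study's methods the libraries analysed were of similar depth, but the lists hold no read counts from which the depth behind a peak could be taken.

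Peaks were assigned to genes by summit, compared by overlap of at least 1 bp and ranked by −log10 p within each list, with Python 3.11.15, pandas 2.3.3, pyfaidx 0.9.0.4 and scipy 1.17.1. Motifs were counted on both strands in the whole peak and in 200 bp around the summit. The motifs searched were the E-box, its variant, the HRE core, AP-1 (TGAGTCA and TGACTCA), the GC box (GGGCGG), the CCAAT box, the AGGTCA element and the D-box. The assignment, overlap and counting steps were tested on simulated data. Gene names and start sites were from GENCODE v44lift37. The genes, the lists and the alternatives were chosen with earlier results of these data known. The named genes were all peaks at NR1D1 and NR1D2, the 13 clock genes, listed partner genes with a peak, nuclear receptor genes with a shControl BMAL1 peak, and the 5 genes nearest in pattern to each REV-ERB gene. Genes chosen after their values were seen are named as such. A gene of the partner and receptor lists and a stretch of sequence are not reported here.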

Additional observations from a re-analysis of the deposited data

How the results depend on the processing

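Alternatives were computed for 35 results, giving 66 values, of which 52 stayed within the limits of the main value, 14 moved and 0 changed direction. Ranked by fold, the percentiles were 84.0 (NR1D1 intron, shControl), 79.3 (NR1D1 promoter) and 33.9 (NR1D1 intron, shBMAL1), and the retained shares of neighbours were 76.5%, 67.0% and 61.0% for the NR1D1 intron, NR1D1 promoter and NR1D2. Without the peaks at EPAS1 and ARNT, an alternative added after seeing the data, 99.0% of the intron's neighbours were retained. When an overlap had to cover at least 50% of both peaks, 0 of the 3 REV-ERB peaks were retained (34.9% of all shControl BMAL1 peaks were), since the shBMAL1 peak in the NR1D1 intron is 33.3% as wide. E-boxes of the shControl peak in the NR1D1 intron numbered 0 in the 200 bp around its summit and 3 over the whole peak. Those of the shBMAL1 peak there numbered 2 in the 200 bp around its own summit and 0 within 100 bp centred on it. Where promoters reached 2500 bp from a start site, the NR1D1 intronic summit counted as 1 promoter peak. With gene starts limited to 10000 bp, HIF2α peaks of shBMAL1 cells were left at 0 of the 8 partner genes. Of the 47 nuclear receptor genes, 2 then had a HIF2α peak in shControl and 2 in shBMAL1 cells. Without the limit these were 5 (10.6%) and 7 (14.9%), beside 5.17% and 4.55% of all genes. Under the same limit, BMAL1 peaks of shControl cells lay at 12 clock genes in place of 13 and at 7 nuclear receptor genes in place of 8. HIF2α peaks of shBMAL1 cells then lay at 3 clock genes in place of 4. The share of all genes was not computed under the limit. No paired analysis was possible because libraries were merged into 1 list per group without replicate numbers, and for the same reason no library could be left out.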
